A study of Homo sapiens with 8 samples.

Results

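The chaperone module is a fixed list of 44 genes for heat shock proteins, chaperonin subunits and folding enzymes of the endoplasmic reticulum (ER), taken by symbol from the 20719 genes listed in the ribosome profiling files. The list was set by gene name, and earlier results of these data were known when it was chosen. By compartment it holds 17 genes of the cytosol (HSF1, the transcription factor of the heat shock response, included), the 8 subunits of the cytosolic chaperonin TRiC, 4 genes of mitochondria and 15 of the ER. All 44 symbols were matched, 42 genes had counts, and these 42 passed the filter on low counts and were tested among 11097 genes.

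The libraries come from G401, a rhabdoid tumor cell line of the kidney without SMARCB1, a subunit of the mSWI/SNF chromatin remodeler. It carried SMARCB1 or GFP, as 2 separate lines, under a doxycycline-inducible promoter. SMARCB1 Dox and GFP Dox cells received 0.1 μg/ml doxycycline for 12 h, whereas SMARCB1 DMSO and GFP DMSO cells received the solvent for the same 12 h. Each group has 2 libraries, several plates were pooled per condition, and whether a line is a clone or a pool is not given in the sources used here. Ribosome-protected fragments were pulled down with RiboLace, which captures translating ribosomes, and each value is a count of fragments on the coding sequence of a gene.

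Chaperones bind proteins that are not yet folded. In the cytosol, HSP70 proteins take up nascent chains with the help of J proteins, which trigger their ATPase, and pass some clients on to HSP90 or to the ring of TRiC. In the ER, the HSP70 protein BiP (HSPA5), the HSP90 protein GRP94 (HSP90B1), the lectins calreticulin and calnexin and the protein disulfide isomerases serve secreted proteins. Heat shock factor acts on cytosolic chaperone genes through heat shock elements, and ATF6 and XBP1 act on ER chaperone genes through ER stress response elements.

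These 2 kinds of element are shown first because some ER members held the one and some cytosolic members the other, and no member matched held both. Of the 44 members, 40 matched a promoter in the RefSeq table, and the 250 bases before each start were searched on both strands. The ER stress response element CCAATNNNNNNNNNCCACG was found in 26 of all 35116 promoters (0.0740%) and in 0.154% of the 9103 tested genes with a promoter, and 4 of the 14 ER members held it (HSPA5, HSP90B1, CALR and CANX). Its second form, ATTGG and CCACG with 1 base between them, was found in 18 of all promoters (0.0513%) and in 0.110% of the tested genes, and the 2 members with it were HYOU1 and SDF2L1, both of the ER. None of the 26 other members matched held either form. The heat shock element with 3 units, GAANNTTCNNGAA or TTCNNGAANNTTC, was found in 0.441% of all promoters, in 0.275% of the tested genes and in 2 members, HSPA8 and DNAJB6. Its pair of units, GAANNTTC or TTCNNGAA, which the 3-unit form contains, was found in 11.6% of all promoters, in 8.37% of the tested genes and in 8 members, of which 7 were cytosolic, 1 was a TRiC subunit (TCP1) and 0 were of the ER. A match is a description of these letters and was not tested for binding.

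Promoters of 6 members whose values are given in the results follow, 5′ to 3′ on the strand of the gene and ending at the base before the RefSeq start (GRCh38.p14). Capitals mark the fixed letters of the element.
HSPA5 (chr9:125241344-125241593, minus strand, ER stress response element): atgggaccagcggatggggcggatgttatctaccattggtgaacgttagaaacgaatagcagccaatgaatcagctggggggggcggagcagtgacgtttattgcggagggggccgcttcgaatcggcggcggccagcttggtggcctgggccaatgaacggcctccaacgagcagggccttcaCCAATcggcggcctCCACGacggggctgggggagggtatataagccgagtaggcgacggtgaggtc
HSP90B1 (chr12:103930160-103930409, plus strand, ER stress response element): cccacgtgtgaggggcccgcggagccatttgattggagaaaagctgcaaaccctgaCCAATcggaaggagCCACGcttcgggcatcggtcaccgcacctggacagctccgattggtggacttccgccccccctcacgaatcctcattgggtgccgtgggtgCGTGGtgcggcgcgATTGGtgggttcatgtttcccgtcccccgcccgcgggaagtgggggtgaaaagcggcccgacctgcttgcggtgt
SDF2L1 (chr22:21642052-21642301, plus strand, second form): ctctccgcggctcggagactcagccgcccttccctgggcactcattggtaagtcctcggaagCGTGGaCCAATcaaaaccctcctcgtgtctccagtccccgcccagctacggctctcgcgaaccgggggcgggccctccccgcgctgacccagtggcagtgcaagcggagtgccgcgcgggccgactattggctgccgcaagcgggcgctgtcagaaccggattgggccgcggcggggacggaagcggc
HSPA8 (chr11:123062137-123062386, minus strand, heat shock element of 3 units): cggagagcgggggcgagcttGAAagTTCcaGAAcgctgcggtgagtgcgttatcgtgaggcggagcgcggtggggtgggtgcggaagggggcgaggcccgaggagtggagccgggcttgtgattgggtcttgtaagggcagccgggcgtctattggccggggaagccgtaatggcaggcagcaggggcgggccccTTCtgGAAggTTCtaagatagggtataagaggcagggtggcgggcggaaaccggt
DNAJB6 (chr7:157336754-157337003, plus strand, heat shock element of 3 units): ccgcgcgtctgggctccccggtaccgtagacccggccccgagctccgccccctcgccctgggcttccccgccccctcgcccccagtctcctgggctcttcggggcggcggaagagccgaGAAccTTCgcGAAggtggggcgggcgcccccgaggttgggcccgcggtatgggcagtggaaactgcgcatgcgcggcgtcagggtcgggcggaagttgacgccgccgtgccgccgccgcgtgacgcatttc
HSPB8 (chr12:119178681-119178930, plus strand, pair of units): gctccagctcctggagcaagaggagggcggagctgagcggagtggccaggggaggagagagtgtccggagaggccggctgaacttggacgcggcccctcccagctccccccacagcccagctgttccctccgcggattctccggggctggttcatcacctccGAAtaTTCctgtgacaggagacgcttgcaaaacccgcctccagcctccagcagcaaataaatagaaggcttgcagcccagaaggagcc

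The libraries held 5924443 to 14000039 counts on genes, and the members took 4.14% to 5.20% of them. SMARCB1 itself was counted 2553 and 1750 times after its induction and 0 times in the other 6 libraries, which fits the labels. GFP Dox replicate 1 stood apart. Reads with more than 1 alignment were 56.4% of its entries against 25.6% to 39.7% elsewhere. As a share of gene counts, it held the lowest value for 12 of the 42 members, against 0 to 9 in each other library. It held the highest for 8, as did 2 other libraries. In every group, the log2 difference of replicate 1 from replicate 2 also tended to be lower in members richer in G and C. Spearman's rho of this difference with coding GC content over 42 members was -0.47 in SMARCB1 Dox and -0.46 in SMARCB1 DMSO. It was -0.23 in GFP Dox and -0.57 in GFP DMSO. Single members could go against this trend. Over 11096 tested genes the same rho ranged from -0.49 to -0.26. These are descriptions across genes of the same libraries, and the part of base composition in the results was not tested.

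The levels of the 42 members spanned a wide range. Levels were compared between genes as CPM (counts scaled to the same gene total in every library) per kb of coding sequence, and the median of the 14322 genes with a count was 10.1 on this scale. The highest member was HSP90AB1, the constitutive cytosolic HSP90, with 3000.5 ± 634 CPM per kb (SD over 8 libraries). It was followed by the calcium-binding lectin CALR with 2704 ± 425, the mitochondrial chaperonin HSPD1 with 1921 ± 263, HSP90B1 with 1542 ± 265, the stress-inducible HSP90AA1 with 1523 ± 210 and the membrane-bound lectin CANX with 1369 ± 306. Of these neighbours, CALR and HSPD1, and HSPD1 and HSP90B1, were further apart than either SD, and the other pairs differed by less than their spread over libraries. The lowest members were HSF1 with 25.1 ± 5.60, the ribosome-associated HSP70 protein HSPA14 with 24.2 ± 5.91, the HSP70 co-chaperone BAG3 with 14.2 ± 3.81 and the small heat shock protein HSPB8 with 4.01 ± 4.60 CPM per kb. HSPB8 was the 1 member below the median of all genes with a count, and its SD was larger than its mean.

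**Figure D1:**
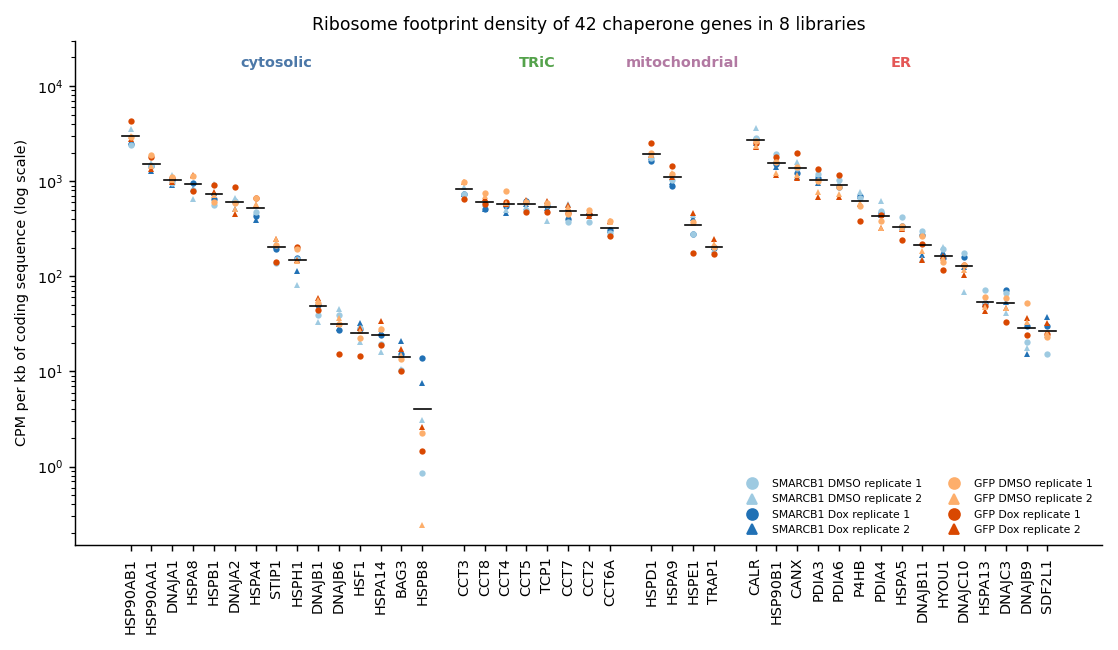
CPM per kb of coding sequence (log scale) of the 42 members with counts, grouped by compartment and ordered by mean. Each point is 1 of 8 libraries and each bar is their mean. HSP90AB1 is highest at 3000.5 and HSPB8 lowest at 4.01, with the 8 TRiC subunits in a narrower range than all members.

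HSP90AB1 stood at 5394 and 5623 CPM in SMARCB1 Dox, 5271 and 7726 in SMARCB1 DMSO, 9348 and 6076 in GFP Dox, and 6324 and 6447 in GFP DMSO (replicate 1, then replicate 2). CALR stood at 3489.6 and 3161, 3543 and 4576, 3153 and 2877, and 3354 and 2976 CPM in the same order. HSP90AB1 was highest in GFP Dox replicate 1, and both SMARCB1 Dox libraries lay below all 4 GFP libraries. For CALR, both SMARCB1 DMSO libraries lay above the other 6 in CPM, but with TMM-scaled library sizes GFP Dox replicate 1 lay between them. TRAP1, the mitochondrial HSP90 and the lowest member of that compartment at 204 ± 20.9 CPM per kb, stood at 419.9 and 425, 429 and 403, 365 and 517, and 428 and 463 CPM.

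The stress-inducible HSP70 genes HSPA1A and HSPA1B had 0 counts in all 8 libraries, which allows up to 0.214 to 0.506 CPM at the depth of each library. Whether they were translated cannot be read from these values. They lie next to each other on chromosome 6 (HSPA1A from 31815543 to 31817946, HSPA1B from 31827738 to 31830254, plus strand), and their coding sequences of 1926 bases each differ at 4 positions (99.8% identical). Of the windows of 30 bases in each sequence, about the length of a footprint, 4.32% occurred once in the primary chromosomes of the hg38 genome and 0% once alternate contigs were counted, and multi-aligned reads were not counted by gene. The substitutions are G1710T, G1860C, C1905T and A1920G, with the base of HSPA1A first, that of HSPA1B last and positions counted from the A of the start codon. The stretch around the first shows the kind of read that could separate them, with the differing base in capitals.
HSPA1A, coding bases 1695 to 1725: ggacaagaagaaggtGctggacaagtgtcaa
HSPA1B, coding bases 1695 to 1725: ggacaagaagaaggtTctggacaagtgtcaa

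Repeated sequence also bore on other members. In 21 of the 44, every window occurred once in the genome. In 9 members fewer than 50% of the windows did, namely HSPA1A, HSPA1B, HSPE1 (13.2%), HSPD1 (30.8%), PDIA3 (35.6%), DNAJB6 (39.3%), HSP90AA1 (40.5%), HSPA8 (45.9%) and HSP90AB1 (48.7%). When levels were given per kb of unique sequence instead, HSPD1 became the highest with 6243 CPM per kb, followed by HSP90AB1 with 6162, HSP90AA1 with 3764 and the disulfide isomerase PDIA3 with 2886. HSPE1 was 7.57 times higher on this scale, at 2639 against 349 CPM per kb. Only 37 of its 280 windows were unique, so the higher value rests on a small part of the gene. Comparisons of 1 gene between libraries do not depend on this choice.

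**Figure D2:**
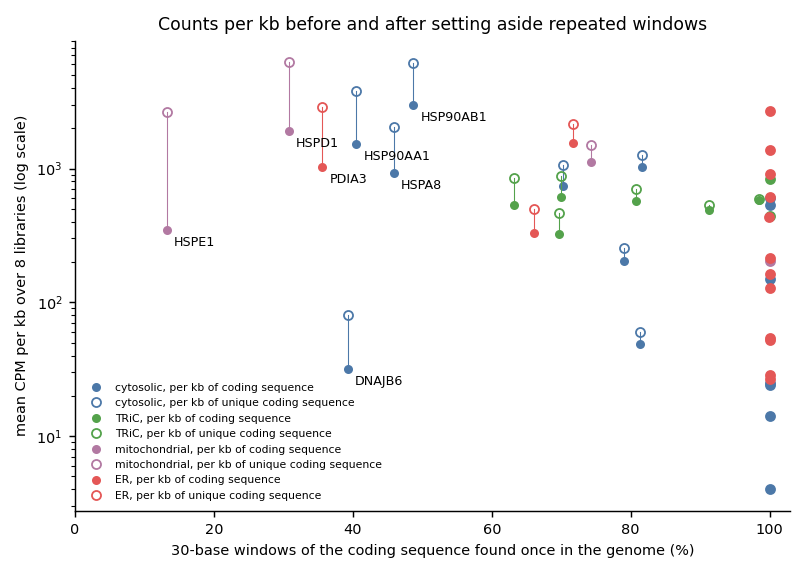
Mean CPM per kb over 8 libraries (log scale) against the share of 30-base windows of the coding sequence that occur once in the genome, for the 42 members with counts. Filled points use the whole coding sequence and open points the unique part, and a line joins both values of a gene. HSPE1, at 13.2%, moves most.

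HSPD1 and its co-chaperonin HSPE1, which closes the chamber in which mitochondrial proteins fold, are transcribed from a shared stretch in opposite directions. The 104 bases between their RefSeq starts are given on the strand of HSPE1.
HSPD1 and HSPE1 (chr2:197500275-197500378, GRCh38.p14): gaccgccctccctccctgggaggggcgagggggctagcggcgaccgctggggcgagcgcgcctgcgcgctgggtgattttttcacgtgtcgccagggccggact
HSPD1 stood at 2795 and 3101 CPM in SMARCB1 Dox, 3049.9 and 3311 in SMARCB1 DMSO, 4335 and 3259 in GFP Dox, and 3374 and 3241 in GFP DMSO. HSPE1 stood at 86.0 and 128, 86.8 and 136, 54.5 and 144, and 115 and 112 CPM in the same order. GFP Dox replicate 1 was thus the highest library for HSPD1 and the lowest for HSPE1. The ratio of the pair per kb of unique sequence was 1.74 to 2.71 in the other 7 libraries and 6.13 in this one. Per kb of coding sequence it was 4.06 to 6.31 in the other 7 and 14.3 in this one. This library also had the most multi-aligned reads (56.4%), and under 50% of the windows of either gene were unique. A link between these was not tested.

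The 8 TRiC subunits, of which each ring of the complex holds 1 copy, were not equal in level. Per kb of coding sequence they ranged from 830.2 ± 136 CPM for CCT3 to 323 ± 48.3 for CCT6A. The highest subunit exceeded the lowest by 2.39 to 3.11 times within a library, and by 1.96 to 2.36 times per kb of unique sequence. CCT3 stood at 1195 and 1212 CPM in SMARCB1 Dox, 1193 and 1422 in SMARCB1 DMSO, 1054 and 1592 in GFP Dox, and 1611 and 1599.6 in GFP DMSO. CCT6A stood at 487 and 495, 457 and 445, 427 and 606, and 611 and 599 CPM. In CPM, both were lower in GFP Dox replicate 1 than in any other library, and otherwise higher in the GFP line than in the SMARCB1 line. With TMM-scaled library sizes, neither was lowest in GFP Dox replicate 1. On that scale CCT6A was higher in all GFP libraries, whereas CCT3 overlapped between the lines.

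Summed over their genes, the ER members took 15558 ± 731 CPM in SMARCB1 Dox, 18433 ± 361 in SMARCB1 DMSO, 15148 ± 3372 in GFP Dox and 14652 ± 1730 in GFP DMSO (SD, n = 2). Both SMARCB1 DMSO libraries, at 18178 and 18689, lay above the other 6, which ran from 12764 to 17533. TRiC took 6704 ± 46.4, 6632 ± 195, 7198 ± 1025 and 8093 ± 217 CPM in the same order of groups, and both GFP DMSO libraries lay above the other 6. The mitochondrial members took 5392 ± 359.7 CPM in SMARCB1 Dox, 5850.3 ± 259 in SMARCB1 DMSO, 6964 ± 1094 in GFP Dox and 6322 ± 33.1 in GFP DMSO, so that all 4 SMARCB1 libraries were below the 4 GFP libraries. The cytosolic members took 14434 ± 496, 15727 ± 2043, 18076 ± 3113 and 17181 ± 862 CPM, and these groups overlapped between lines. These sums rest on the most abundant genes and were not tested. With TMM-scaled library sizes, GFP Dox replicate 1 had the highest ER sum (20100.3) and the mitochondrial sums of the lines overlapped, whereas both GFP DMSO libraries stayed highest for TRiC. A lower value in a pooled culture can mean fewer footprints per cell or fewer cells that make the protein, which cannot be told apart.

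**Figure D3:**
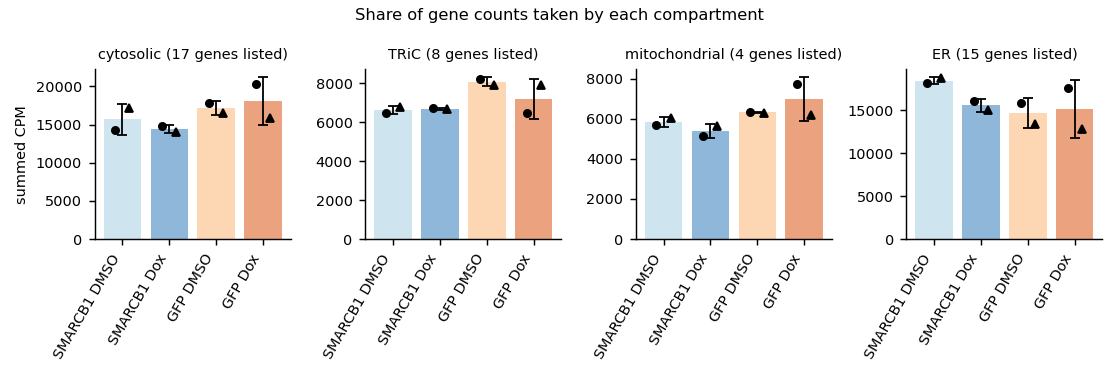
Summed CPM of the members of each compartment, by group. Bars are means of 2 libraries, error bars the SD, and points the libraries (circle, replicate 1; triangle, replicate 2). ER sums are highest in SMARCB1 DMSO (18433) and TRiC sums in GFP DMSO (8093), and the GFP Dox libraries are far apart in all 4 panels.

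The first comparison asks what 12 h of SMARCB1 re-expression did to the chaperones. None of the 42 members was called in SMARCB1 Dox against SMARCB1 DMSO at an adjusted p below 0.05 by edgeR's quasi-likelihood test (Benjamini-Hochberg), with 2 of 11097 genes (0.018%) called in all and 0 members by DESeq2. At an unadjusted p below 0.05 there were 3 of 42 members against 4.97% of all genes. For 32 of the 42, the 95% interval of the fold change lay within a 2-fold difference in either direction. By compartment, the median log2 fold change was 0.02 for the 15 cytosolic members tested (8 above 0), -0.07 for TRiC (3 of 8), -0.20 for the mitochondrial members (0 of 4) and -0.28 for the ER members (4 of 15), beside -0.02 for all genes (47.2% above 0).

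The 3 members with the smallest p in this comparison were HSPB8, DNAJB6 and BAG3. HSPB8, which works with BAG3 to route misfolded proteins to autophagy, had 94 and 27 counts in SMARCB1 Dox (8.24 and 4.50 CPM). With DMSO this line had 3 and 25 counts (0.506 and 1.82 CPM). Its GFP libraries held 6 and 10 counts with Dox (0.865 and 1.56 CPM) and 16 and 2 with DMSO (1.33 and 0.143 CPM). Both SMARCB1 Dox libraries lay above the other 6. The log2 fold change was 2.20 (SE 0.84, adjusted p = 0.823 in edgeR's test). The ratio of pooled counts was 4.87 (95% exact interval 3.21 to 7.63, counting error only). It was 13.7 without SMARCB1 DMSO replicate 2 and 3.15 without SMARCB1 Dox replicate 1, so that single libraries set its size.

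BAG3 stood at 26.4 and 36.3 CPM in SMARCB1 Dox, 17.7 and 18.5 in SMARCB1 DMSO, 17.6 and 29.9 in GFP Dox, and 23.4 and 26.0 in GFP DMSO. It was higher with Dox in both SMARCB1 libraries, but GFP Dox replicate 2 reached the same range. Its log2 fold change in the SMARCB1 line was 0.67 (SE 0.29, adjusted p = 0.955). DNAJB6, a J protein that keeps aggregation-prone chains soluble, stood at 26.6 and 27.8 CPM in SMARCB1 Dox, whereas its values with DMSO were 38.5 and 44.2. It was lower with Dox in both libraries, with a log2 fold change of -0.72 (SE 0.29, adjusted p = 0.901). Of its windows 39.3% were unique, so this level rests on part of the gene.

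GFP induction served as the control for doxycycline. Again 0 of the 42 members were called in GFP Dox against GFP DMSO (0% of all genes), and at an unadjusted p below 0.05 there were 0 members against 2.16% of all genes. The intervals of 33 members lay within 2-fold. DNAJB6 was the member with the smallest p here, at 14.9 and 31.0 CPM with Dox against 31.0 and 35.9 with DMSO. Its log2 fold change was -0.49 (SE 0.29, adjusted p = 1 in edgeR's test), with GFP Dox replicate 1 far below the rest. The small heat shock protein HSPB1 stood at 560.5 and 479.8 CPM against 378 and 438 (log2 fold change 0.46, SE 0.29). The ER J protein DNAJB9, a partner of BiP, stood at 16.3 and 24.4 CPM against 35.3 and 22.4 (-0.43, SE 0.35). Its Dox and DMSO values overlapped, whereas those of HSPB1, which was picked by its p in this comparison, did not.

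The compartments did not order the same way in GFP cells. Median log2 fold changes were 0.01 for the cytosolic members (10 of 15 above 0), -0.09 for TRiC (1 of 8), 0.14 for the mitochondrial members (3 of 4) and 0.03 for the ER members (8 of 15), beside 0.02 for all genes (52.9% above 0). The ER value depended on GFP Dox replicate 1, without which it was -0.27 (2 of 15 above 0). No member differed between the Dox effects in SMARCB1 and GFP cells by edgeR's test of the interaction (0 of 42 called, 0% of all genes, 0 members and 3.99% of all genes at an unadjusted p below 0.05). Of the 42 intervals only 11 lay within 2-fold, so that for the other members a 2-fold difference remained inside the interval.

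Averaged over both lines, 4 Dox libraries against 4 DMSO libraries, 0 of 42 members were called (0% of all genes), 2 members had an unadjusted p below 0.05 against 3.46% of all genes, and 40 intervals lay within 2-fold. DNAJB6 was the 1 member whose Dox libraries all lay below its DMSO libraries, where 1.15% of all genes did not overlap in either direction. The highest Dox library and the lowest DMSO library both print as 31.0 CPM, so the gap was slight. Its averaged log2 fold change was -0.61 (SE 0.21, unadjusted p = 0.0111, adjusted p = 1.00 in edgeR's test). HSPB8 had 1.50 (SE 0.64), from the SMARCB1 line above all. SDF2L1, which works with BiP in the ER, stood at 20.0 and 24.6 CPM in SMARCB1 Dox, 10.1 and 16.1 in SMARCB1 DMSO, 16.6 and 21.8 in GFP Dox, and 15.4 and 16.7 in GFP DMSO. It was the lowest ER member per kb, and its averaged log2 fold change was 0.48 (SE 0.23). Doxycycline is also known to inhibit mitochondrial ribosomes. The 4 mitochondrial members had averaged log2 fold changes of -0.17 to 0.05.

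**Figure D4:**
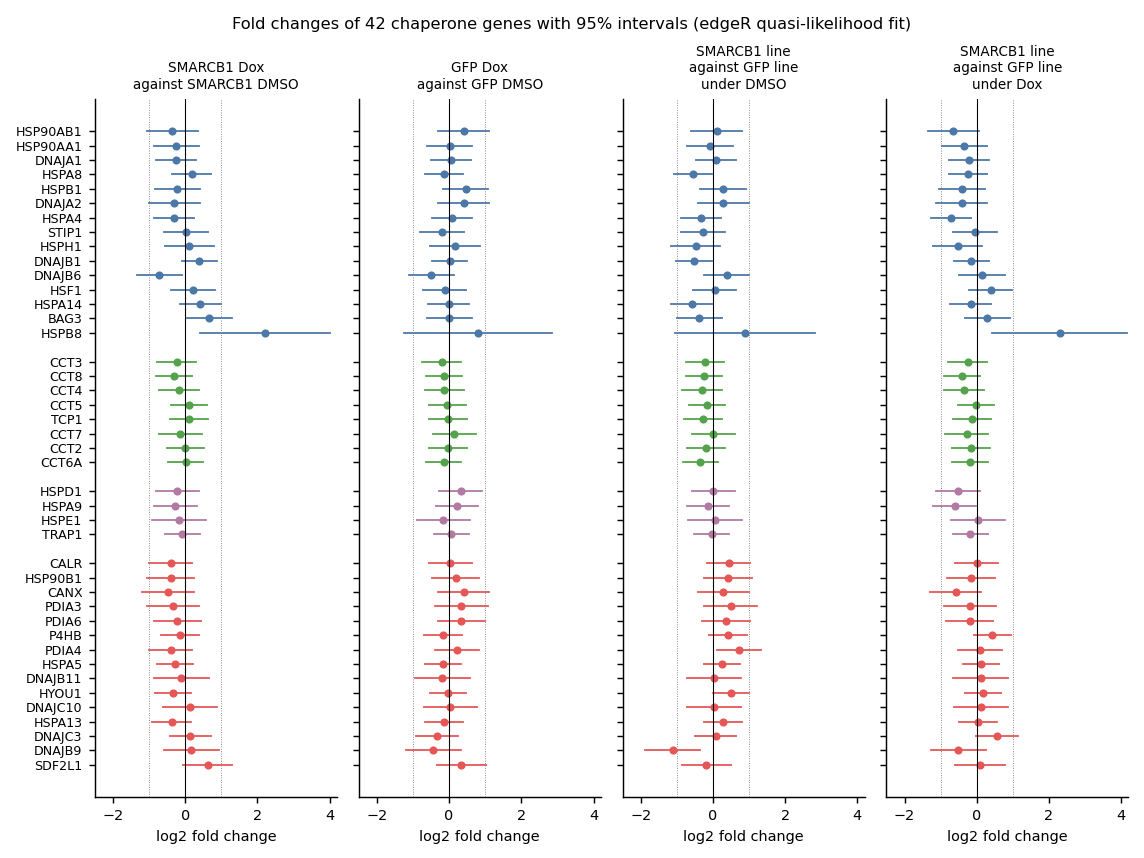
Log2 fold changes of the 42 members (points) with 95% intervals (bars) in 4 comparisons, from edgeR's quasi-likelihood fit of all libraries. Dotted lines mark 2-fold. No member was called in any panel. HSPB8, at 2.20 in SMARCB1 Dox against SMARCB1 DMSO, has the widest interval, and the ER members lie mostly right of 0 in the third panel.

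The comparison of both lines without induction serves as a check on how far these lines differ at the start. With DMSO, 587 of 11097 genes (5.29%) were called between the SMARCB1 and the GFP line, and 0 of the 42 members were. At an unadjusted p below 0.05 there were 5 of 42 members against 13.9% of all genes. The ER members were mostly higher in the SMARCB1 line (median log2 fold change 0.29, 13 of 15 above 0) and the TRiC subunits mostly lower (-0.24, 1 of 8 above 0), beside 0.02 for all genes (51.5% above 0). These signs of the medians held under all 16 alternatives, from 0.19 to 0.43 for the ER and from -0.33 to -0.12 for TRiC. Of the 6 ER members with either form of the ER stress response element, 5 had a log2 fold change above 0, from 0.24 for HSPA5 to 0.49 for HYOU1, and SDF2L1 had -0.19. Among the other ER members only DNAJB9 was below 0, and PDIA4 was highest at 0.72. Any part of the element in these values was not tested.

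DNAJB9 had the smallest p and, with SDF2L1, was 1 of the 2 ER members lower in the SMARCB1 line by the fitted value. It stood at 13.7 and 12.0 CPM in SMARCB1 DMSO against 35.3 and 22.4 in GFP DMSO, a log2 fold change of -1.11 (SE 0.36, adjusted p = 0.106 in edgeR's test). With Dox it stood at 20.2 and 10.3 CPM in the SMARCB1 line against 16.3 and 24.4 in the GFP line, so that the lines overlapped there. The adjusted p in the DMSO comparison was 0.0207 without the filter on low counts and 0.0363 when only these 4 libraries were fitted. PDIA4, an ER disulfide isomerase, stood at 940.3 and 1213 CPM in SMARCB1 DMSO against 745 and 629 in GFP DMSO (log2 fold change 0.72, SE 0.28, adjusted p = 0.226). The cytosolic J protein DNAJB1, the partner of inducible HSP70, stood at 40.2 and 33.9 CPM against 53.8 and 57.9 (-0.53, SE 0.23, adjusted p = 0.299). For both genes the libraries of the lines did not overlap with DMSO, but both were picked by their p in this same comparison. Members not picked, such as HSPA8 (1580 and 1271 CPM against 2188 and 2185), did not overlap either.

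With Dox, 727 genes (6.55%) were called between the lines and again 0 of the 42 members, with 3 of 42 at an unadjusted p below 0.05 against 18.7% of all genes. The TRiC subunits were all lower in the SMARCB1 line (median -0.22, 0 of 8 above 0), whereas the ER members were split (0.09, 9 of 15 above 0). The ER value was 0.29 without GFP Dox replicate 1 (14 of 15 above 0), and 1 TRiC subunit was then above 0. Over the 16 alternatives, however, the ER median ran from -0.19 to 0.29, with 5 to 14 members above 0, and 2 alternatives gave the other sign. Scaling by library size alone moved the median of all genes from -0.01 to 0.11 in this comparison. Without GFP Dox replicate 2, 6 members were called lower in the SMARCB1 line, namely HSP90AB1, HSPA4, DNAJA2, HSPA9, HSPD1 and CANX, beside 1661 genes called in all, and GFP Dox was then replicate 1 alone.

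Averaged over both treatments, 1239 genes (11.2%) were called between the lines, and the smallest adjusted p of a member was 0.0540 for DNAJB9 (log2 fold change -0.81, SE 0.25). The call of DNAJB9 depended on the method, with an adjusted p of 0.0286 by DESeq2. In edgeR's test it was 0.0108 without the filter on low counts and 0.0257 with the replicate number as a block. There were 6 of 42 members at an unadjusted p below 0.05 against 23.1% of all genes. In CPM, all 4 libraries of a line lay beyond those of the other for 4 of the 42 members, against 16.9% of all genes. P4HB, the catalytic disulfide isomerase of the ER, stood at 1017 to 1183 CPM in the SMARCB1 line and at 585 to 892 in the GFP line (log2 fold change 0.43, SE 0.17, adjusted p = 0.147). PDIA4 stood at 861 to 1213 CPM against 623 to 847. The mitochondrial HSP70 protein HSPA9 stood at 1837 to 2184 CPM in the SMARCB1 line against 2271 to 2983 in the GFP line. HSPA4, which exchanges the nucleotide of HSP70, stood at 995 to 1210.2 CPM against 1404 to 1689 (-0.52, SE 0.18, adjusted p = 0.0926). The first pair was higher and the second lower in the SMARCB1 line. With TMM-scaled library sizes, PDIA4 and HSPA9 overlapped between the lines, whereas P4HB and HSPA4 did not.

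**Figure D5:**
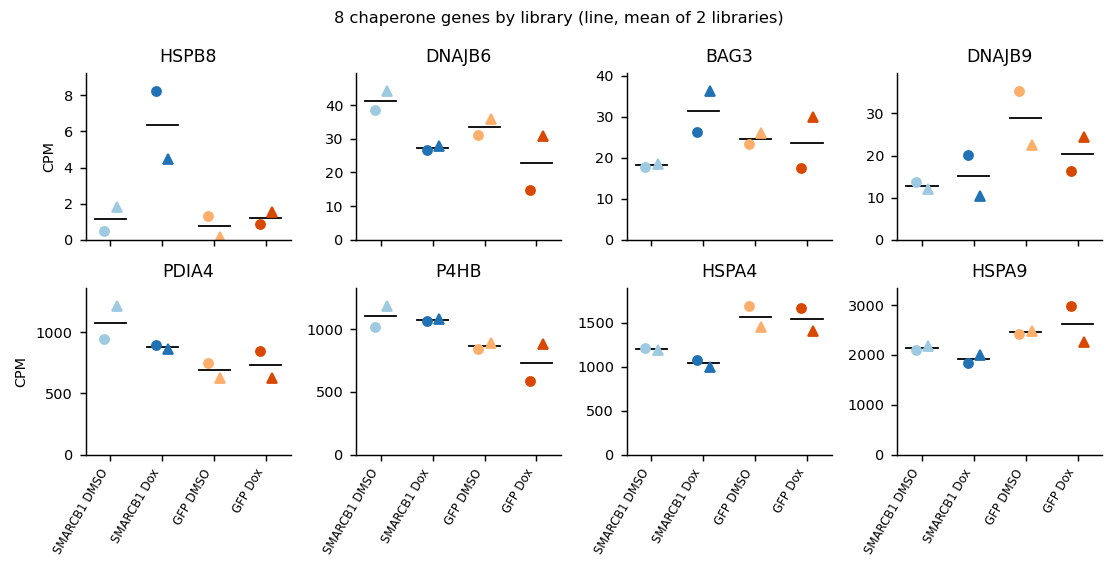
CPM of 8 members in each library by group (circle, replicate 1; triangle, replicate 2; line, mean of 2 libraries; each axis starts at 0). HSPB8 is high only in the SMARCB1 Dox libraries (8.24 and 4.50), and DNAJB6 is lower with Dox in both lines. PDIA4, P4HB, HSPA4 and HSPA9 separate the lines in CPM, but with TMM-scaled library sizes PDIA4 and HSPA9 overlap between them.

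A wider list of 94 chaperones and cofactors, of which 84 were tested, had 0 genes called in each of the 4 Dox comparisons (0 or 1 at an unadjusted p below 0.05). Between lines, 2 of the 84 were called with DMSO (5.29% of all genes), 3 with Dox (6.55%) and 5 on average (11.2%). At an unadjusted p below 0.05 in edgeR's test there were 11, 13 and 21 of the 84, against 13.9%, 18.7% and 23.1% of all genes. POFUT2, which adds fucose to folded domains in the ER, stood at 49.6 to 55.9 CPM in the SMARCB1 line and 18.8 to 27.5 in the GFP line (averaged log2 fold change 1.19, SE 0.18, adjusted p = 0.000321 in edgeR's test). The ER J protein DNAJC1 stood at 225 to 302 CPM against 109 to 142 (0.97, SE 0.16). Both were called higher in the SMARCB1 line with DMSO, with Dox and on average. The ER prolyl isomerase FKBP14 was called higher on average, at 92.6 to 123 against 54.9 to 76.2 CPM. The small heat shock protein CRYAB stood at 871 to 1142 CPM in the SMARCB1 line against 1849 to 2597 in the GFP line (-1.12, SE 0.20) and was called lower with Dox and on average. HSPB6, of the same family, was called lower on average but had 56 counts in all libraries together.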

How the data were processed

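The authors prepared RiboLace ribosome profiling libraries from 8 cultures (plates pooled per condition), aligned reads with STAR to hg38 and counted them with HTSeq (intersection-strict, coding sequences, GENCODE 42). The deposited values are raw counts per gene, not normalized. Versions of these tools, read trimming, duplicate and ribosomal RNA handling and the strand option are not given in the sources used here. Groups come from the sample titles. The 5 HTSeq summary entries of each file were left out of totals. The RNA-seq libraries were not analysed here, so values are ribosome occupancy and not translation efficiency.

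Gene IDs without version were matched to GENCODE 44, and 293 IDs had no symbol. CPM uses gene totals. Counts were filtered with filterByExpr, scaled with TMM and fitted with edgeR 4.0.16 (glmQLFit, glmQLFTest) in R 4.3.3 over all 8 libraries with 1 term per group. Genes were called at a Benjamini-Hochberg adjusted p below 0.05. DESeq2 1.42.0 was an alternative. GC content was that of the canonical coding sequence, and log2 differences between replicates used a pseudocount of 1 CPM. Uniqueness was computed here for 30-base windows of the canonical coding sequence. Full statistics were given for the 3 members with the smallest p in 4 of the 7 comparisons, and levels for the highest and lowest member of each compartment. P4HB, HSPA9, HSPA4 and HSPE1 were described after their values were seen. Of the wider list, genes called were named, and HSPB11 was not matched. The members and lists were chosen with earlier results of these data known. The fit was tested on simulated data. Replicate libraries differed by more than sampling noise (genes with at least 10 counts, chi-square per degree of freedom 14.5 to 45.5). The experiments were run in duplicate, and whether the duplicates were grown at different times is not given in the sources used here, so p-values measure the spread between these libraries. Library depth, 5924443 to 14000039 counts, sets the counting error, and without molecular identifiers the exact interval of the HSPB8 ratio and the limits for a count of 0 cover counting error only. Standard errors and intervals of fold changes were derived here from edgeR's fold change and F statistic. They are approximate and include the spread between libraries.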

Additional observations from a re-analysis of the deposited data

How the results depend on the processing

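The number of members called was 0 in all 4 Dox comparisons under every alternative run (other size factors, library size only, DESeq2, no filter, a minimum of 10 counts per library, a fit of the compared groups alone where possible, replicate block, robust fit, a 2-fold minimum, and leaving out each library). Over all 7 comparisons there were 116 alternative counts, of which 105 were 0. The exceptions were between lines. With DMSO, 1 member (DNAJB9) was called with no filter (754 genes in all) and 1 (DNAJB9) with only the groups compared (775). With Dox, 1 (HSPB8) was called with no filter (1004 genes), and leaving out single libraries gave 0 to 6, the 6 without GFP Dox replicate 2 (1661). Averaged over treatments, 2 were called by DESeq2 (DNAJB9, HSPA4; 1471 genes in all) and 2 with no filter (DNAJB9, HSPB8; 1565). With the replicate number as a block, 2 were called (DNAJB9 at an adjusted p of 0.0257, HSPH1 at 0.0331; 1595 genes in all). Leaving out single libraries gave 0 to 4, namely 4 without GFP Dox replicate 2 (1877 genes), 2 without GFP Dox replicate 1 (1374), 1 without SMARCB1 Dox replicate 1 (808) and 1 without GFP DMSO replicate 1 (808). A lone library left in a group was assumed to vary like the other groups. What caused these differences was not tested. Same-numbered replicates deviated together in 5 of 6 pairs of groups (correlation above 0.1, at 0.21 to 0.36). In SMARCB1 DMSO with GFP Dox the correlation was 0.0528. With this value under 0.1 and no batch in the labels, the main fit did not pair the replicates. A shared effect of the replicate number was not tested. Of 187 alternative values for the named fold changes, 185 kept direction and side of the threshold, and 0 reversed. With TMM-scaled library sizes, 5 of the 16 sums of a compartment in a group moved by more than the SD of their 2 libraries. With 2 libraries per group, a difference under 2-fold was often not detectable, and larger ones could also go uncalled. HSPB8, at a log2 fold change of 2.20 in SMARCB1 Dox against SMARCB1 DMSO, was not called.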

Other observations

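The ratio of HSPA8, the constitutive cytosolic HSP70, to HSPA5, its ER counterpart, separated the lines, and was chosen after its values were seen, as 1 of 5 ratios computed. In CPM it was 2.80 and 2.51 in SMARCB1 Dox, 1.91 and 1.97 in SMARCB1 DMSO, 3.21 and 3.62 in GFP Dox, and 3.27 and 3.46 in GFP DMSO. All 4 values of the SMARCB1 line were below those of the GFP line, and those with DMSO were the lowest. The ratio of the lectins CALR to CANX lay between 1.35 and 1.62 in 7 libraries and was 0.890 in GFP Dox replicate 1. HSP90B1 over HSPA5 was 8.95 in the same library and 4.52 to 6.35 in the others. Coding GC content is 53.3% for CALR, 44.7% for CANX, 47.7% for HSPA5, 46.4% for HSPA8 and 41.3% for HSP90B1. Over the 42 members, Spearman's rho of the averaged log2 line difference with GC content was 0.41, against 0.04 over 11096 tested genes, a description across genes that share the same 8 libraries.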
